A study of Mus musculus with 8 samples.

Results

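miR-218 is a microRNA that is encoded inside introns of the Slit genes, which code for secreted guidance proteins that bind Robo receptors. Its members here were all rows of the deposited tables whose mature name is mmu-miR-218-5p, mmu-miR-218-1-3p or mmu-miR-218-2-3p: 3 of the 1281 mature miRNAs, held in 4 of the 1418 entries. mmu-miR-218-5p has 2 entries, 1 for each precursor, because both precursors carry the same 5p arm. Each 3p arm belongs to 1 precursor only.

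Small RNA libraries came from mouse bone and from a mouse bone cell line, both labelled C57BL/6. The bone was calvaria (the parietal and frontal bones of the skull vault) of female Prrx1-Cre+ mice 2 to 3 days old, treated with collagenase and trypsin for 20 minutes and frozen, with 3 libraries. The cell line was MC3T3-E1 sc4, a subclone of a calvarial pre-osteoblast line, at passage 10 to 15. It was taken undifferentiated at day 0, and at days 6, 10, 17 and 24 under osteogenic medium with 50 µg/ml ascorbic acid and 4 mM β-glycerol phosphate. The column names of these 4 later days also carry "veh", which is not explained, and that of day 0 does not. Whatever "veh" stands for cannot be told apart from differentiation here. The MC3T3 set holds 1 library per day, each made from RNA pooled over 3 cultures, so that all 5 libraries describe 1 clonal line and no day has a replicate. The labels name no floxed allele beside the Prrx1-Cre transgene, which is expressed in limb and skull mesenchyme, and whether each calvaria library came from an animal of its own is not labelled. P-values therefore measure only the spread between these libraries, which may be technical.

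A miRNA guides the silencing complex to messenger RNAs through its seed, bases 2 to 8 of the mature strand. One arm of each hairpin is usually kept as the guide and the other is degraded. miR-218-5p is the guide strand. In osteoblasts it is known for lowering the Wnt antagonists Sost, Dkk2 and Sfrp2, and it is also one of a panel of miRNAs with predicted sites in Runx2, the master transcription factor of osteoblasts. It is abundant in motor neurons as well.

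The mature strands are shown with the seed in capitals, because the 3 arms carry 3 different seeds. The sequences are from RefSeq (GRCm38.p6, the same assembly as mm10), where all 3 members were found.
mmu-miR-218-5p: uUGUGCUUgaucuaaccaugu
mmu-miR-218-1-3p: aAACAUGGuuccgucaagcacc
mmu-miR-218-2-3p: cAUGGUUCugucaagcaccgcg
Of the 1679 mature miRNAs in the RefSeq table, 1 other shares the seed of miR-218-5p (miR-7002-3p, not measured here) and 1 other shares that of miR-218-1-3p (miR-496b, with 0 counts in all 8 libraries). No other shares the seed of miR-218-2-3p. The 3p arms overlap in 19 aligned bases, of which 1 differs, but they start 3 bases apart, and this shift changes the seed.

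The hairpins are shown with both arms in capitals, because they show where reads of the precursors can be told apart. Mir218-1 lies at chr5:48223942-48224051 on the plus strand, in an intron of Slit2 (intron 14, 15 or 16, by transcript). Mir218-2 lies at chr11:35616816-35616925 on the plus strand, in intron 14 of Slit3. Both point the same way as their host gene in GENCODE M21.
Mir218-1: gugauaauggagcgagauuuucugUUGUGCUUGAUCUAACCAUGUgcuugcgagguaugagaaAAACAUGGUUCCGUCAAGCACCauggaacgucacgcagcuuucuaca
Mir218-2: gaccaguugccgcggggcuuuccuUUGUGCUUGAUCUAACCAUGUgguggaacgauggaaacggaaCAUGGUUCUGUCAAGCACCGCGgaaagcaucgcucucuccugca
The 5p arm is identical over its 21 bases. The hairpins first differ 1 base before the arm and 2 bases after it. A read of the mature strand alone thus matches both loci, as does a read that runs 1 base past the arm. A read that reaches a differing base can match only 1 locus.

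Library totals ran from 1183011 to 2023036 counts in calvaria and from 2742368 to 4031962 counts in MC3T3. Values are RPM, the counts of a miRNA per 1000000 counts of its library. Intervals are exact 95% Poisson intervals and cover counting error only, not the spread between libraries. PCR copies of one molecule cannot be recognised, so the intervals may be too narrow even for that. The day 0 library stood apart: miR-21a-5p alone took 45.5% of its counts, against 5.41% to 9.74% in calvaria and 11.2% to 20.1% on the later days, and a large share of this kind lowers every other RPM value of the library. Each step from day 0 is therefore also given after TMM scaling, which estimates a factor per library from the bulk of the miRNAs.

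Markers of other cell types were read beside these totals. The endothelial pair from miR-126 summed to 9028 to 20323 RPM in calvaria and to 6.20 to 19.0 RPM in MC3T3, and reached 10 counts in some library for 2 of 2 in calvaria and 1 of 2 in MC3T3. The 7 blood cell miRNAs summed to 308 to 454 RPM in calvaria and to 38.9 to 110.6 RPM in MC3T3, and reached 10 counts for 7 in calvaria and 2 in MC3T3. Among them miR-486-5p alone averaged lower in calvaria, at 53.1 RPM against 82.9 RPM in MC3T3. The 4 cartilage arms of miR-140 and miR-455, all detected in both, summed to 61235 to 111611 RPM in calvaria and to 18218 to 28775 RPM in MC3T3. For these 3 lists the ranges of the sums did not overlap, with calvaria higher. The 6 striated muscle miRNAs summed to 283 to 642 RPM in calvaria and to 213 to 574 RPM in MC3T3, with miR-208b-3p at 0 everywhere. The 8 nervous system miRNAs summed to 1821 to 1916 RPM in calvaria and to 1353 to 3094 RPM in MC3T3. Both of these ranges overlapped, but the muscle members differed. Of 3 muscle miRNAs with 10 counts in a library of each material, 2 were called higher in calvaria and 0 lower (edgeR). Of all such miRNAs 53.6% were called. The 2 were miR-1a-3p (means of 275 RPM in calvaria and 61.8 RPM in MC3T3) and miR-133a-3p (37.1 and 4.17 RPM). The third, miR-206-3p, averaged lower in calvaria (112 RPM, against 212 RPM in MC3T3) and stood at 556 RPM at day 0. Among scarcer members, miR-499-5p also averaged lower in calvaria (2.70 and 9.74 RPM) and miR-133b-3p higher (4.26 and 0.218 RPM). miR-124-3p, the defining neuronal miRNA, averaged 0.331 RPM in calvaria and had 0 counts in MC3T3, where miR-137-3p was at 0 as well. In contrast, 4 nervous system miRNAs had 10 counts in a library of each material, and 0 of them were called (edgeR). miR-128-3p (means of 561 RPM in calvaria and 328 RPM in MC3T3) and miR-9-5p (74.3 and 41.1 RPM) averaged higher in calvaria. miR-7a-5p averaged lower (1229 and 1636 RPM), and miR-219-5p was nearly equal (8.11 and 8.13 RPM). The part of these cell types in the miR-218 levels was not tested. In bulk RNA fewer cells of a type and less RNA per cell cannot be told apart.

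miR-218-5p was readily detected in every library and was lowest in undifferentiated MC3T3 cells. In calvaria it held 2013 RPM (1933 to 2095), 1959 RPM (1898 to 2021) and 2295 RPM (2215 to 2378) in libraries 1, 2 and 3, a mean of 2089 ± 181 RPM (SD, n = 3). In MC3T3 it held 458 RPM (437 to 479) at day 0, 2915 RPM (2856 to 2975) at day 6, 2982 RPM (2921 to 3043) at day 10, 3094 RPM (3039 to 3149) at day 17 and 2427 RPM (2369 to 2486) at day 24. Every differentiated day lay above every calvaria library, and day 0 lay below all of them. The counts behind these values were 2381, 3963 and 3083 in calvaria and 1847, 9199, 9257, 12191 and 6657 over the MC3T3 days. As a share of the library it made up 0.196% to 0.230% in calvaria, 0.0458% at day 0 and 0.243% to 0.309% on the later days. By abundance it ranked between 52nd and 59th among mature miRNAs in calvaria, 77th of 609 detected at day 0 and between 41st and 47th on the later days. In the order of levels, days 17, 10 and 6 came first and their neighbouring intervals overlapped. Day 24 and calvaria 3 followed with overlapping intervals, then calvaria 1 and 2, also overlapping, and day 0 was last. After TMM scaling the groups kept this order, at 1803 to 2048 in calvaria, 641 at day 0 and 2523 to 3061 on the later days.

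**Figure D1:**
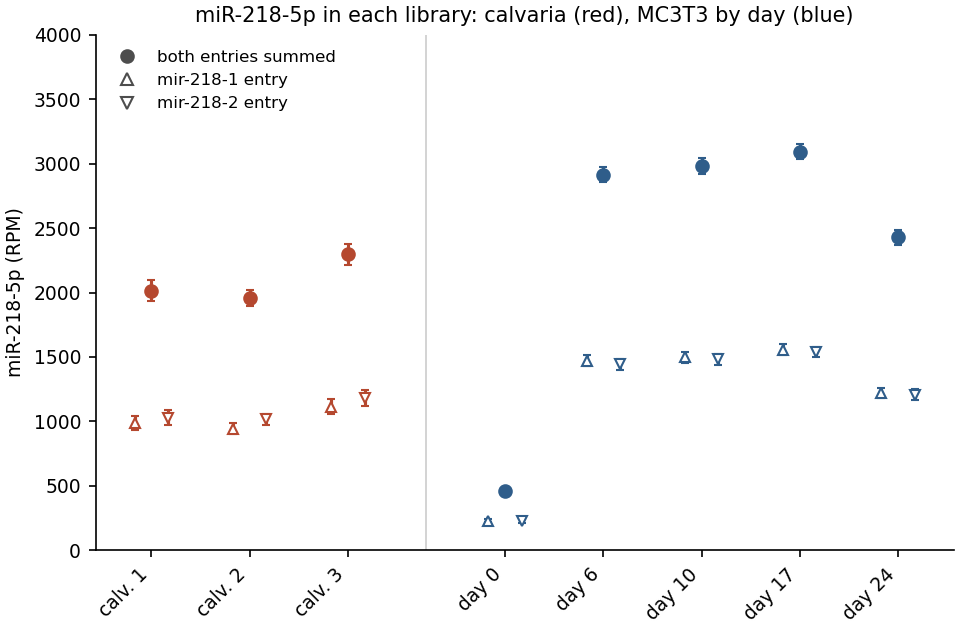
miR-218-5p in each library in RPM, for the 2 precursor entries (open triangles) and their sum (filled circles), in calvaria (red) and in MC3T3 by day (blue); bars are exact 95% Poisson intervals. The summed value is 1959 to 2295 RPM in calvaria, 458 RPM at day 0 and 2427 to 3094 RPM from day 6 to day 24.

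The difference between undifferentiated and differentiated MC3T3 cells lay in 1 step, that between day 0 and day 6. miR-218-5p at day 6 was 6.36 times its day 0 level in RPM (95% interval 6.05 to 6.69) and 3.94 times after TMM scaling (3.75 to 4.14). It ranked 16th of 404 mature miRNAs by this step on the TMM scale, where 56 of them (13.9%) were more than 2-fold higher at day 6. The later steps were small. The ratio was 1.02 (0.994 to 1.05) for day 10 over day 6, 1.04 (1.01 to 1.07) for day 17 over day 10 and 0.785 (0.761 to 0.808) for day 24 over day 17, in RPM. After TMM scaling these steps were 1.19 (1.15 to 1.22), 1.02 (0.994 to 1.05) and 0.861 (0.835 to 0.887). Day 24 over day 6 was 0.833 (0.807 to 0.859) in RPM but 1.04 (1.01 to 1.08) after TMM scaling, so the direction of that difference depended on the scaling. These ratios compare single libraries and carry no test.

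A trend with day was tested over the 5 MC3T3 libraries together. With day as a straight line, the log2 change of miR-218-5p fitted over 24 days was 1.33 ± 0.83 (SE). Its p, adjusted by the Benjamini-Hochberg method over all 391 mature miRNAs tested, was 0.351 in edgeR's quasi-likelihood F-test. It missed the threshold of 0.05, which 9 miRNAs (2.30%) passed. On a log2(day + 1) scale, which gives the early days more room, miR-218-5p rose by a log2 change of 2.22 ± 0.50 (adjusted p = 0.0109, edgeR), one of 87 of 391 (22.3%) that passed there.

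The call on that scale held with library totals (2.72, adjusted p = 0.0443), DESeq2 size factors (2.24, 0.00629) and upper quartile factors (2.23, 0.0117), all in edgeR. With day 6, 10, 17 or 24 left out it also held, at 2.11 to 2.67. Without day 0 it was lost, at -0.04 ± 0.64 (adjusted p = 0.962, edgeR), and on the straight line the value was then -0.09 (0.882). The call thus rests on the day 0 library, the one that stood apart in miR-21a-5p, and no trend was detectable from day 6 to day 24.

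Bone was then compared with the cell line. Over all 5 days miR-218-5p averaged 2089 ± 181 RPM in calvaria (n = 3) and 2375 ± 1102 RPM over the MC3T3 days (SD, n = 5), a spread that includes the change over days. The log2 difference, calvaria minus MC3T3, was -0.31 ± 0.41 (SE, adjusted p = 0.520, edgeR). The threshold was passed by 301 of 471 mature miRNAs (63.9%), and miR-218-5p was not among them. The size depended on the scaling, at -0.15 under DESeq2 size factors (adjusted p = 0.764), -0.19 under plain totals (0.762) and -0.74 under the upper quartile (0.146), all in edgeR.

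Against the differentiated days alone, miR-218-5p was lower in calvaria. It averaged 2089 ± 181 RPM in calvaria and 2855 ± 294 RPM at days 6 to 24 (SD, n = 4). In RPM the nearest libraries, day 24 (2427 RPM) and calvaria 3 (2295 RPM), had overlapping counting intervals. After TMM scaling, which the main fit used, the nearest were day 6 (2523) and calvaria 3 (2048). Day 0 was the only single library whose removal from the comparison over all 5 days gave a call. The log2 difference was -0.56 ± 0.16 (adjusted p = 0.00925, edgeR), in a fit in which 322 of 461 miRNAs (69.8%) passed. The share called is large, so a call here is common. With other scalings the difference was -0.45 (library totals, adjusted p = 0.0327), -0.41 (DESeq2 size factors, 0.0403) and -0.92 (upper quartile factors, 0.00105) in edgeR. With the count minimum then asked of 2 libraries, the call was lost without calvaria 1 or 2 (-0.53 and -0.51, adjusted p = 0.0514 and 0.0523, edgeR), and without calvaria 3 it was kept (-0.60, 0.0129). Against days 17 and 24 only, the difference was -0.76 ± 0.17 (adjusted p = 0.00457, edgeR), where 281 of 411 miRNAs (68.4%) passed. Against days 0 and 6 it was 0.17 ± 0.51 (0.787).

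**Figure D2:**
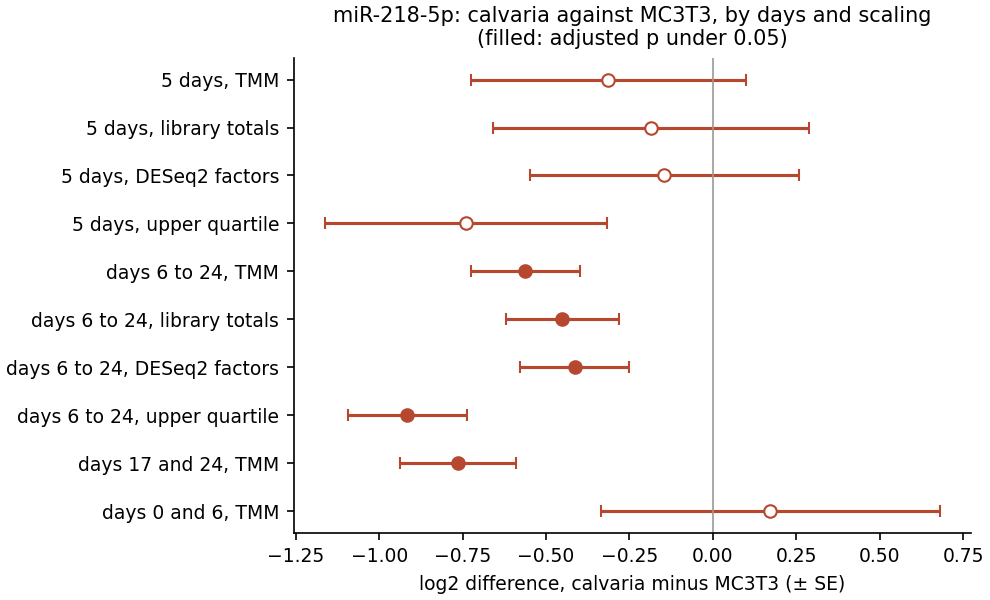
Log2 difference of miR-218-5p, calvaria minus MC3T3, on the x axis with its SE, for the MC3T3 days and the scaling named on the y axis; filled points have an adjusted p under 0.05 in edgeR. All 4 scalings against days 6 to 24 lie at -0.41 or lower and are filled, while those against all 5 days are open.

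The precursor entries of miR-218-5p were nearly equal, and their small difference had opposite signs in the 2 materials. Of the 16 entry values, 10 were whole numbers and 6 were not, all of these at days 6, 10 and 17. No source used here says how reads that match both precursors were counted, so each entry's own level is uncertain. The mir-218-1 entry held 1166, 1909 and 1497 counts in calvaria 1, 2 and 3, against 1215, 2054 and 1586 counts in the mir-218-2 entry. In MC3T3 the mir-218-1 entry held 931, 4643.5, 4652.5, 6136.5 and 3345 counts at days 0, 6, 10, 17 and 24, against 916, 4555.5, 4604.5, 6054.5 and 3312 counts in the mir-218-2 entry. The mir-218-2 entry was thus the larger in each calvaria library and the mir-218-1 entry the larger in each MC3T3 library. In every library the counting intervals of the 2 entries overlapped. That overlap does not test their difference, because the entries may share reads that match both precursors.

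As a share of the summed counts, mir-218-1 took 49.0%, 48.2% and 48.6% in the calvaria libraries. It took 50.4%, 50.5%, 50.3%, 50.3% and 50.2% over the MC3T3 days. The log2 ratio of mir-218-1 over mir-218-2 averaged -0.083 ± 0.023 over the 3 calvaria libraries and 0.020 ± 0.0057 over the 5 MC3T3 libraries (SD), a difference of -0.10 with p = 0.0357 in a two-sided exact permutation test over the 8 libraries. That is the smallest p this design allows. The measure was chosen after the values had been seen. Of 24 miRNAs with 2 precursor entries of at least 10 counts in every library, 2 (8.33%) had entry ratios that did not overlap between the materials, miR-218-5p and miR-128-3p. Leaving out 1 library cannot make separate ranges overlap, so it gives no further check. The exact permutation p was then 0.0571 or 0.0952, again the smallest possible.

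The 3p arms, which each name their precursor, were rare. mmu-miR-218-1-3p had 1, 3 and 0 counts in calvaria 1, 2 and 3. In MC3T3 it had 2, 5, 4.5, 10 and 5 counts at days 0, 6, 10, 17 and 24. mmu-miR-218-2-3p had 1 count in each calvaria library and 0 counts on every MC3T3 day. With counts rounded, it made up 3 of 7 counts of the 3p arms in calvaria (42.9%, exact Clopper-Pearson interval 9.90% to 81.6%) and 0 of 26 in MC3T3, where the exact upper bound is 13.2%. So the mir-218-2 arm was seen in calvaria only, but 3 counts in all do not support a fold or a test.

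Neither 3p arm reached 10 counts in enough libraries to be tested. Pooled over libraries, mmu-miR-218-1-3p stood at 0.879 RPM in calvaria (0.240 to 2.25) and 1.56 RPM in MC3T3 (1.02 to 2.28), a TMM-scaled ratio of 0.490 whose counting interval (0.127 to 1.44) includes no change. mmu-miR-218-2-3p stood at 0.659 RPM in calvaria (0.136 to 1.93), and its 0 counts in MC3T3 have an exact upper bound of 0.217 RPM. Both 3p arms together made up 0.0742% of all miR-218 counts in calvaria (0.0298% to 0.153%) and 0.0664% in MC3T3 (0.0434% to 0.0972%). The guide arm therefore carried nearly all counts in both materials, and a difference in the arm balance was not detectable at this depth. By day the share of 3p arms lay between 0.0432% and 0.108% in MC3T3.

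**Figure D3:**
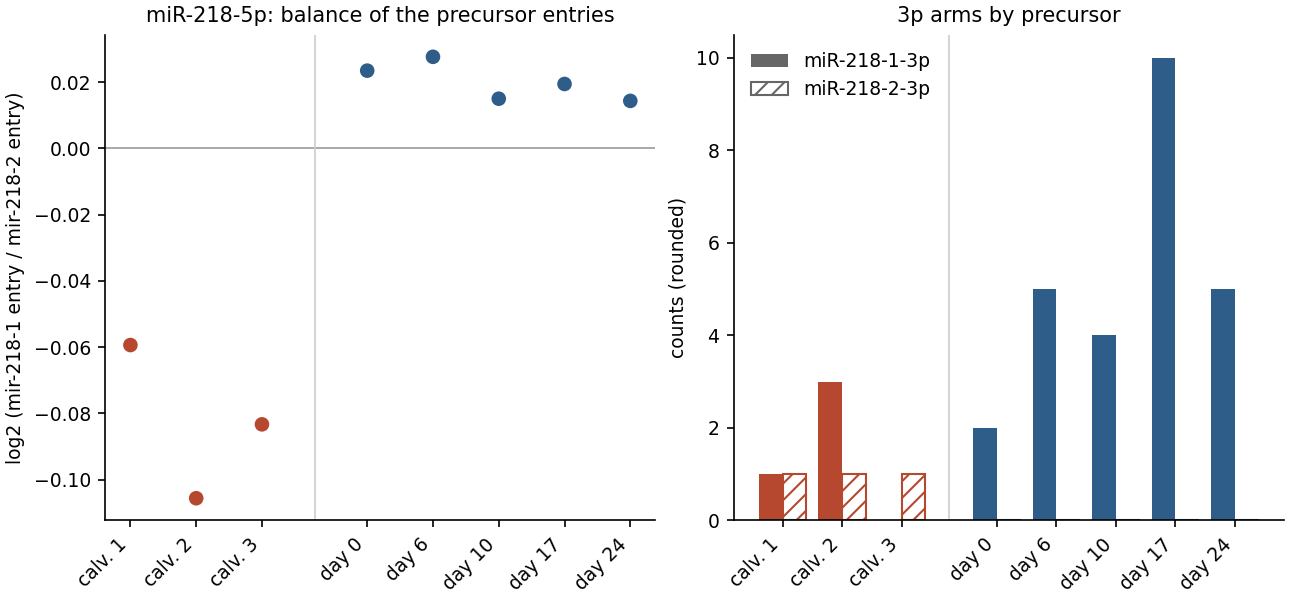
Left, log2 ratio of the mir-218-1 over the mir-218-2 entry of miR-218-5p in each library, below 0 in the 3 calvaria libraries (red) and above 0 in the 5 MC3T3 libraries (blue). Right, rounded counts of miR-218-1-3p (filled) and miR-218-2-3p (hatched), the second with 1 count in each calvaria library and 0 in MC3T3.

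The miRNAs with courses most like that of miR-218-5p were sought by the root mean square difference of log2 CPM, each profile centred on its own mean. Over all 8 libraries the nearest were miR-152-3p (0.32), miR-101a-3p (0.32), miR-219-5p (0.34), miR-16-5p (0.43) and miR-574-3p (0.45), against a median difference of 1.02 over 470 mature miRNAs. All 5 were lowest at day 0. miR-152-3p held 10478, 11553 and 14522 RPM in calvaria, 3002 RPM at day 0 and 11079 to 12343 RPM on the later days. miR-101a-3p, the miRNA the series title names, differed from miR-218-5p within the later days: its centred value was -0.39 at day 6 and 0.93 at day 24, while that of miR-218-5p was 0.33 and 0.39.

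Over the 5 MC3T3 libraries alone the nearest were miR-199b-5p (0.20), miR-99a-3p (0.24), miR-146b-5p (0.27), miR-6243 (0.28) and miR-708-5p (0.29), with a median of 0.86 over 470. miR-199b-5p, a mesenchymal miRNA, held 423 RPM at day 0 and 3769, 4018, 3922 and 3006 RPM at days 6, 10, 17 and 24. In calvaria it held 5116 to 6567 RPM, above every MC3T3 day, unlike miR-218-5p. miR-6243 was also higher in calvaria, at 19928 to 24826 RPM, against 140 to 796 RPM in MC3T3. miR-708-5p lay the other way, at 167 to 201 RPM in calvaria and 2366 to 4191 RPM at days 6 to 24. Calvaria was below days 6 to 24 for miR-99a-3p and miR-146b-5p as well. These are descriptions of 8 or 5 libraries in which the low day 0 value weighs heavily.

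**Figure D4:**
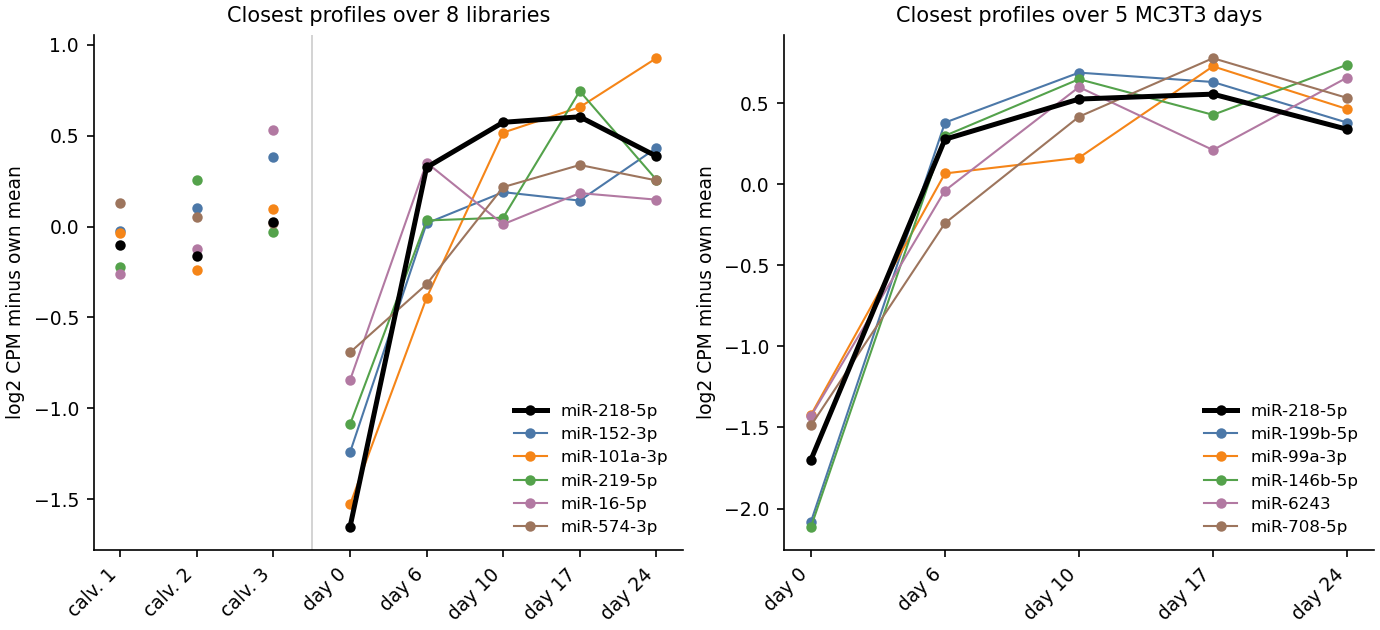
Log2 CPM minus each miRNA's own mean, for miR-218-5p (black) and the 5 miRNAs with the closest profiles over all 8 libraries (left; calvaria as unjoined points) and over the 5 MC3T3 days (right). Every line is lowest at day 0, where miR-218-5p stands at -1.65 on the left and -1.70 on the right.

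miR-218-5p belongs to 2 lists of miRNAs linked to osteoblasts. The first holds 15 miRNAs reported to raise Wnt signalling or osteoblast differentiation, of which miR-2861 had 0 counts in all libraries. In calvaria against MC3T3, 2 of its 13 tested members were called higher and 5 lower, a share near the 63.9% of all miRNAs. A member with 10 counts in only 1 of the materials enters the test through it. This fixes its direction where that material is calvaria, whose libraries hold fewer counts. Where it is MC3T3, a lower value in calvaria is favoured but not fixed. Of the 10 members with 10 counts in a library of each material, 1 was higher and 3 lower (median log2 difference -0.41), against 53.6% called of the 332 such miRNAs (84 higher and 94 lower, median -0.10), a restriction chosen after the data were seen. miR-322-5p was higher in calvaria (400 ± 136 RPM in calvaria and 155 ± 50.8 RPM in MC3T3, log2 1.21, adjusted p = 0.00189, edgeR). The collagen-targeting miR-29a-3p was lower (a mean of 646 RPM in calvaria and 3284 ± 900 RPM in MC3T3, log2 -2.56 ± 0.30, adjusted p = 2.26e-05, edgeR), and so were miR-29b-3p (-2.05) and miR-15b-5p (-1.89). The call of the blood cell marker miR-142-3p (50.3 ± 13.5 RPM in calvaria and 0.173 ± 0.165 RPM in MC3T3) had its direction fixed by the count minimum. The count minimum also favoured, without fixing them, the lower calls of 2 members that entered through MC3T3. These were miR-29c-3p (a mean of 3.75 RPM in calvaria and 13.8 RPM in MC3T3) and miR-196a-5p from the Hox clusters (a mean of 0.496 RPM in calvaria and 75.4 RPM in MC3T3). miR-335-5p, which targets the Wnt antagonist Dkk1, had 1.01 ± 0.53 (adjusted p = 0.117). Without day 0 the list had 3 higher and 7 lower of 13, miR-218-5p among the lower, where 69.8% of all miRNAs were called.

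With day, 1 of 12 tested members of that list rose and 1 fell (median 0.35, against -0.12 over all 391, of which 2.30% were called). These were miR-210-3p (4.88 ± 0.96, adjusted p = 0.0482), which is induced by hypoxia, and miR-196a-5p (-2.77 ± 0.37, 0.0348), both in edgeR. Both calls were lost without day 6, 17 or 24, and without day 0 the list had 4 rising and 3 falling of 12, where 15.5% of all miRNAs were called. On the log2(day + 1) scale 3 members rose, miR-218-5p among them, and 1 fell, against 22.3% of all miRNAs called. miR-335-5p, singled out after its values were seen, was also lowest at day 0, with 30.3 RPM at day 0 and 275 to 424 RPM on the later days (log2 1.87 ± 1.06, adjusted p = 0.322).

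The second list holds 12 miRNAs with reported or predicted sites in Runx2, of which miR-135a-5p, miR-137-3p and miR-217-5p had 0 counts in all MC3T3 libraries. In calvaria against MC3T3, 5 of its members had 10 counts in a library of each material, of which 2 were called higher and 1 lower (median -0.25), beside the 53.6% of such miRNAs. miR-23a-3p (log2 1.92, adjusted p = 3.96e-05) and miR-133a-3p (2.99, 4.28e-05), a striated muscle miRNA, were higher in edgeR. The sixth tested member, miR-217-5p, had 48.0 ± 37.3 RPM in calvaria and 0 counts in MC3T3, so its direction was fixed and no fold is given. miR-34c-5p, a p53 target, was lower (348 ± 38.9 RPM in calvaria and 10792 ± 2443 RPM in MC3T3, log2 -5.14). With day, 0 of 6 tested members passed in edgeR (median 0.70, against -0.12 over all 391), and 0 did at an unadjusted p under 0.05, in the DESeq2 Wald test or in limma. On the log2(day + 1) scale miR-218-5p was the 1 of the 6 that rose and 0 fell, where 22.3% of all 391 miRNAs were called. The lists overlap in miR-218-5p alone.

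**Figure D5:**
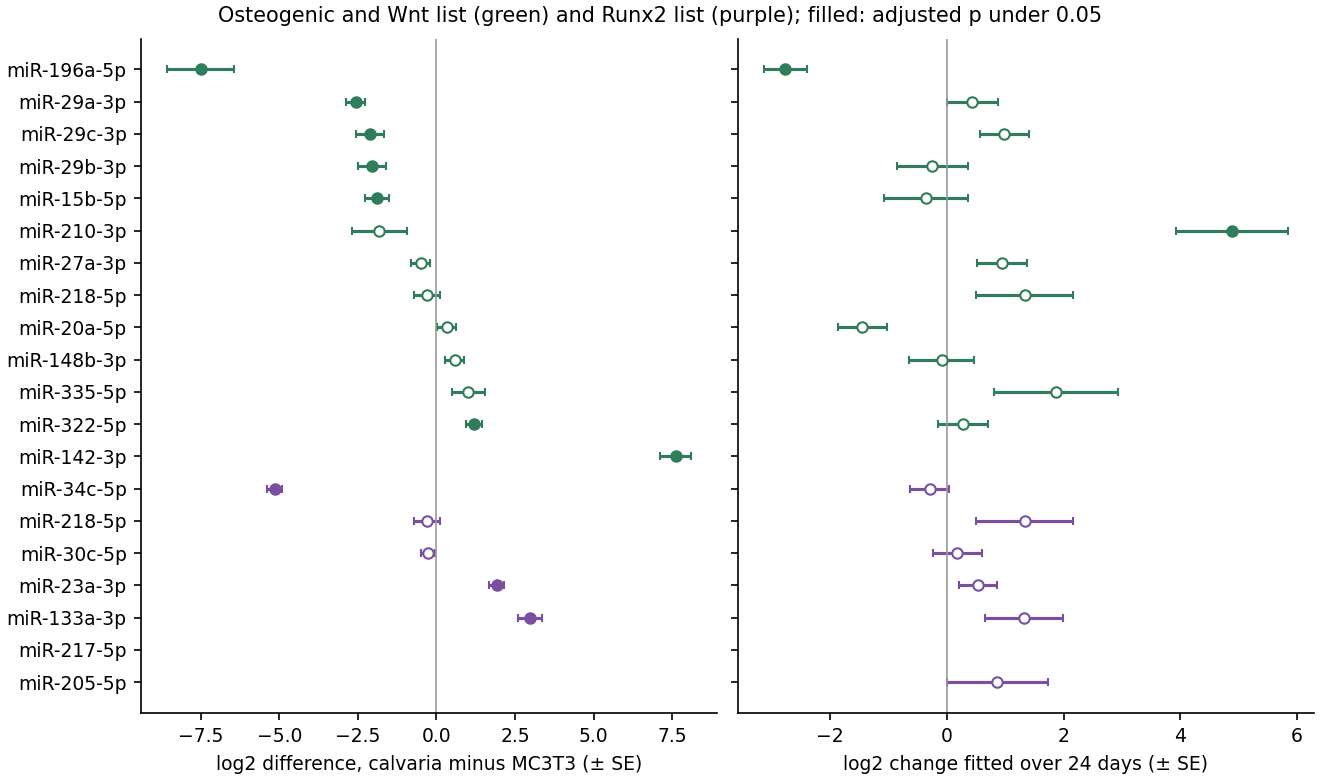
Log2 difference of calvaria minus MC3T3 (left) and fitted log2 change over 24 days (right), with SE, for the tested members of the Wnt and osteogenic list (green) and the Runx2 list (purple); filled points have an adjusted p under 0.05 in edgeR. miR-218-5p, drawn in both lists, is open in both panels (-0.31 and 1.33), and miR-217-5p, at 0 in MC3T3, is left out of the left panel. In the left panel the direction of miR-142-3p was fixed by the count minimum, which also favoured, without fixing, those of miR-29c-3p and miR-196a-5p.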

How the data were processed

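The deposited raw table holds estimated counts (also called expected counts) per mature arm and precursor entry, partly fractional. The RPM values deposited by the authors are these counts over the library total, and the members matched that quotient within 0.00496 RPM. Per the submitters' processing notes, cutadapt 0.9.5, Bowtie 0.12.7 and mm10 were used, with no role or order named; no source used here gives the quantifier. MC3T3 column names carry days 3 lower than the titles for every library, and the titles were followed; the later 4 carry "veh", which is not explained.

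Counts were rounded, summed per mature miRNA and tested in R 4.3.3 by the quasi-likelihood test of edgeR 4.0.16 with TMM factors. P-values were adjusted over all mature miRNAs tested (Benjamini-Hochberg, threshold 0.05), given at least 10 counts in 2 MC3T3 libraries (day trend) or in 3 of 8 libraries (calvaria). The SE is the log2 change over the root of its F statistic. Profiles used log2 CPM with a prior count of 2. Permutation tests were exact (scipy 1.17.1). The fits were tested on simulated data. Other scalings, count minimums, left-out libraries, DESeq2 1.42.0 and limma 3.58.1 on log2(RPM + 1) served as alternatives. Named miRNAs are the members, those sharing a seed, the members of the Wnt and osteogenic list, of the Runx2 list and of the marker lists, and the 5 closest profiles over 8 and over 5 libraries. The members and lists were chosen with earlier results of these data known.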

Additional observations from a re-analysis of the deposited data

How the results depend on the processing

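The straight-line day trend of miR-218-5p missed the threshold in every setting tried on that scale, with log2 changes of -0.0926 (without day 0) to 2.82 (without day 24) when 1 library was left out. On the log2(day + 1) scale it passed, at 2.22 with TMM and, added after the data were seen, at 2.72 (library totals), 2.24 (DESeq2 size factors) and 2.23 (upper quartile). Leaving out 1 library on that scale, also added later, gave -0.0384 without day 0, missing the threshold, and 2.29, 2.11, 2.35 and 2.67 without day 6, 10, 17 and 24, all passing. Against all 5 MC3T3 days the calvaria difference ranged from -0.562 (without day 0, passing) to -0.138 (without calvaria 1) when 1 library was left out, and from -0.740 (upper quartile) to -0.145 (DESeq2 size factors) over scalings. It changed sign in limma (0.0785) and against days 0 and 6 (0.173), missing the threshold in both. It passed against days 17 and 24 (-0.764) and, in alternatives added later, against days 6 to 24 with library totals (-0.451), DESeq2 size factors (-0.414) or upper quartile (-0.915) and without calvaria 3 (-0.595). The difference in entry ratio lay between -0.114 and -0.0913 with 1 library left out, where the design cannot reach 0.05. Day 24 over day 6 was 0.833 in RPM and 1.04 with TMM. With no count filter miR-218-2-3p was called higher in calvaria (adjusted p = 0.0433, edgeR) on its 3 counts. No paired analysis was possible because each MC3T3 day has 1 library and the labels number no calvaria replicates.

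The number of miRNAs called with day was 9 as reported, 14 per precursor entry or without day 10, 16 with no count filter, 33 in the DESeq2 Wald test, 59 without day 0, 54 to 103 on the log2(day + 1) scale and 1 with a minimum of 100 counts. It was 0 in edgeR with library totals and without day 6, 17 or 24, and 0 in limma, with 62, 80, 52, 80 and 71 at an unadjusted p under 0.05. For calvaria it was 301 as reported, 156 with a minimum of 100 counts 394 with no count filter and 161 to 168 without 1 calvaria library, or 255 to 291 with the minimum then asked of 2 libraries. TMM split these into 167 higher and 134 lower, and upper quartile factors into 142 and 192. Scaling moved the median log2 difference of all miRNAs: it was 0.07 (TMM), 0.22 (DESeq2), 0.25 (library totals) and -0.37 (upper quartile). The causes were not tested. The 3p arms, at 0 to 10 counts per library, are limited by depth.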
